A study of Rattus norvegicus with 110 samples.

Results

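Dcun1d2 (ENSRNOG00000019473.7) and Krt80 (ENSRNOG00000025994.6) were examined here, 2 of the 31998 rat gene identifiers measured. They were chosen by their kidney RNA, as the 2 genes that differed with carbon tetrachloride (CCl4) treatment of the grandsire at the limits used for ancestral effects, namely an adjusted p below 0.1 together with more than 50 normalized counts on average. Their kidney difference by grandsire treatment is therefore given as a description and was not tested. Their levels in liver, their response to the dose given to the animals themselves and the effect of the sire played no part in the choice. Liver is not an independent sample of ancestry, however. The 27 vehicle livers came from the males whose kidneys chose the genes, and all livers came from descendants of the same grandsires. Because the choice required expression in kidney, the contrast between organs is also given as a description.

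The animals were F2 male Sprague Dawley rats of 34 litters, necropsied on 4 dates after oral gavage with CCl4 in olive oil or olive oil alone (vehicle), 3 times per week at 0.5 mL/kg, with tissues taken on day 39. CCl4 is a hepatotoxin that injures the centre of the liver lobule and, given repeatedly, causes fibrosis. It was given at 8% (low dose) or 50% (high dose). Cohort A had no treated ancestor, cohort B a treated F1 sire, cohort C a treated F0 grandsire and cohort D both, where treated ancestors had received 50% CCl4 and all others olive oil for 6 weeks, with 2 weeks of recovery before mating to untreated females. Liver RNA was available for the 12 combinations of cohort and dose and kidney RNA for the vehicle males of the 4 cohorts, with 7 males per group and 6 in cohort C vehicle. Cohorts A and B descended from 8 untreated and cohorts C and D from 9 treated F0 sires, so that males of 1 cohort shared grandsires. Library totals lay between 31638559 and 51343589 counts in the 83 livers and between 21961746 and 35055218 in the 27 kidneys. Normalization factors (TMM, which scale each library to the bulk of its genes) had medians of 0.844 in vehicle, 0.956 in low dose and 1.25 in high dose livers, and 0.998 in kidneys. The organ labels were checked with kidney genes: Lrp2, the endocytic receptor of the proximal tubule, differed between liver and kidney by −7.27 on the log2 scale and Nphs1 of the podocyte by −4.98.

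Dcun1d2 encodes a member of the DCN family. These proteins hold a cullin and a NEDD8-loaded E2 enzyme such as Ube2m together, so that NEDD8 is joined to the cullin and the cullin-RING ubiquitin ligase becomes active. Krt80 encodes a type II epithelial keratin, a subunit of intermediate filaments that lies near the cell margin and desmosomes of differentiating epithelia. Hepatocytes rely on a simpler keratin network, and kidney tubules are lined by several kinds of epithelium. In bulk samples, fewer cells of a type and less RNA per cell cannot be told apart.

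In kidney, both genes were lower in the males with a treated F0 grandsire, with or without a treated sire. The lowest, median and highest normalized counts of Dcun1d2 were 296.8, 341.4 and 352.5 in cohort A. They were 322.4, 326.4 and 357.5 in cohort B, 254.6, 291.6 and 314.8 in cohort C, and 259.2, 264.2 and 299.54 in cohort D. Every male of cohorts C and D lay below every male of cohort B, and cohort A overlapped with cohorts C and D through 1 of its libraries. Pooled by grandsire, Dcun1d2 stood at 335 ± 15.9 (SD, n = 14) with an untreated and 282 ± 21.4 (n = 13) with a treated grandsire. In 9 of 13 males with a treated grandsire the count was below that of every male without, and 13 of the 14 others exceeded every male with a treated grandsire.

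For Krt80 the lowest, median and highest kidney counts were 770.8, 808.8 and 991.4 in cohort A. They were 707.1, 799.4 and 1023 in cohort B, 598.2, 704.9 and 804.6 in cohort C, and 558.2, 633.1 and 718.1 in cohort D. Cohort D lay below the whole of cohort A, whereas cohorts B and C overlapped widely. The pooled counts were 835 ± 91.6 (n = 14) and 670 ± 69.2 (n = 13), with 9 of 13 males of treated grandsires below every other male and 7 of the 14 others above them all. Krt80 was the more variable gene, with a within-group SD of 0.15 on the log2 scale against 0.089 for Dcun1d2. As TPM, a level per transcript length scaled to the library, the means were 5.35 ± 0.693 and 4.48 ± 0.632 for Dcun1d2 and 10.97 ± 1.68 and 8.78 ± 1.29 for Krt80.

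**Figure D1:**
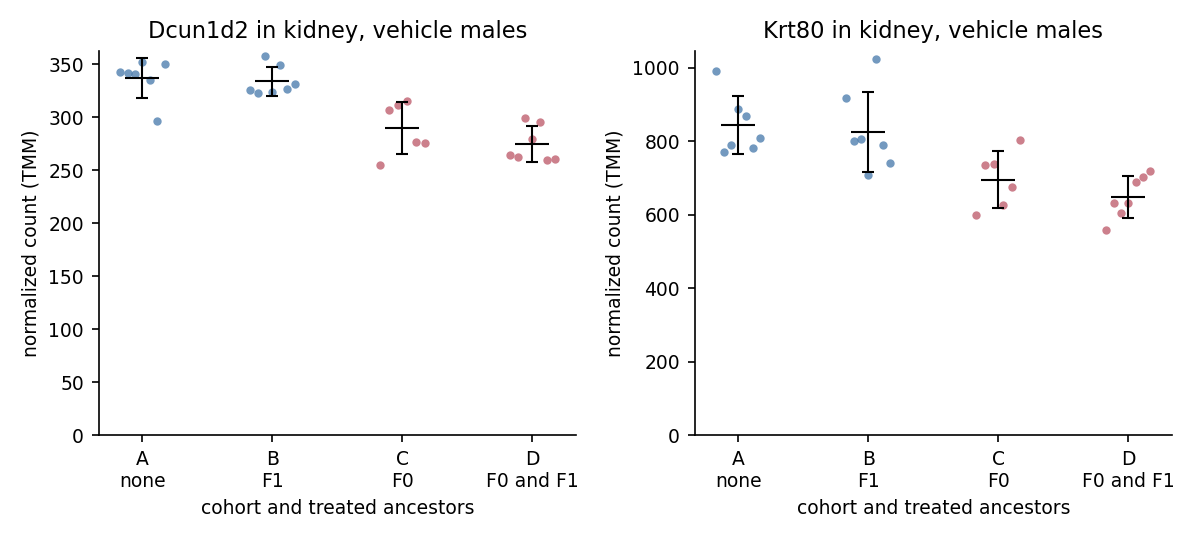
Normalized counts of Dcun1d2 and Krt80 (y axes, from 0) in the 27 kidney libraries of vehicle males by cohort (x axes). Points are animals, and the bars mark the group mean and SD. The Dcun1d2 means of cohorts A and B (337 and 333.8) lie above those of C and D (289.9 and 274.4), and the Krt80 means of A and B (843 and 826.2) above those of C and D (695.9 and 648.3).

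The F0 difference in kidney, from an edgeR model with grandsire and sire treatment as terms, was −0.25 (SE 0.042) on the log2 scale for Dcun1d2 and −0.31 (SE 0.059) for Krt80, which is −16.0% and −19.6%. These are the values that chose the genes: they were the 2 of 18374 genes tested (0.0109%) past the limits, both lower, at adjusted p-values of 0.0323 and 0.0973. DESeq2 placed 73 genes past the same limits, 29 of them higher, so that the number of genes chosen depended on the tool. The gene next outside the limits was Wdr33, a polyadenylation factor, at −0.31 with an adjusted p of 0.199. The differences were small and the spread between males was small too. Among the 12885 genes with a mean count over 50, 5.40% had a larger absolute difference than Dcun1d2 and 3.03% than Krt80, and the standard error was lower in 9.44% and 31.6% of them, with a median of 0.075.

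The difference was also read cohort by cohort, as a description. Against cohort A, with which all of these differences share their controls, Dcun1d2 differed by −0.22 (SE 0.061) in cohort C and −0.30 (SE 0.058) in cohort D, and by −0.014 (SE 0.058) in cohort B. For Krt80 the values were −0.28 (SE 0.086), −0.38 (SE 0.082) and −0.028 (SE 0.082). On the 4 necropsy dates, with 8, 7, 4 and 8 males, the F0 difference was −0.29, −0.20, −0.17 and −0.28 for Dcun1d2 and −0.46, −0.24, −0.52 and −0.11 for Krt80, lower on each date. Leaving out 1 library at a time gave −0.27 to −0.24 and −0.33 to −0.28. With each F0 sire as 1 unit, the kidney mean of Dcun1d2 was lower for 9 of 9 treated sires than for every untreated sire, and that of Krt80 for 8 of 9. With the F0 sire as a correlated block in limma, the kidney differences were −0.25 and −0.31, and Krt80 was then outside the rule that had chosen the genes.

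The treatment of the F1 sire was a contrast that the choice of the genes had not used. It moved Dcun1d2 in kidney by −0.05 (95% interval −0.126 to 0.036, edgeR adjusted p = 0.945) and Krt80 by −0.06 (−0.179 to 0.050, adjusted p = 0.939). Neither gene passed, beside 0 of 18374 genes (0%) in edgeR and 0 in DESeq2, with 1225 genes at an unadjusted p under 0.05 in edgeR. An F0 by F1 interaction, which asks whether both treated ancestors together differed from the sum of each, was −0.07 for Dcun1d2 (−0.230 to 0.0987) and −0.07 for Krt80 (−0.307 to 0.158), with adjusted p-values of 0.99995. Here too 0 genes (0%) passed in edgeR and DESeq2, with 395 at an unadjusted p under 0.05. The means of the 4 dates spanned 0.13 for each gene (adjusted p = 0.886 and 0.918), where 0% of genes passed in edgeR (0 genes, 1028 at an unadjusted p under 0.05) and 25 in DESeq2.

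Genes of the same pathways were taken from lists, of which only members with an identifier in the study's gene table could be followed. That table consists mainly of genes the study selected in these same samples for the F0 effect in liver, with others selected for the F0 difference in kidney, so it is not an independent choice. Of its 1488 genes tested in liver, 82.1% were called there by grandsire treatment. Of the 5 DCN family genes, Dcun1d2 and Dcun1d3 had an identifier, and Dcun1d1, Dcun1d4 and Dcun1d5 were not analysed here. In kidney, Dcun1d3, the membrane-bound member of the family, had means of 190 ± 27.9, 171 ± 23.3, 177 ± 36.1 and 154 ± 17.5 normalized counts in cohorts A to D. Its F0 difference was −0.13 (SE 0.085, adjusted p = 0.678). The F0 differences of Ube2m, the E2 enzyme that DCN proteins bind, and of Cul9, an atypical cullin, were 0.04 (adjusted p = 0.879) and 0.03 (adjusted p = 0.871). Among cell junction genes, Jup (plakoglobin) stood at 0.07 (adjusted p = 0.688). Of the other type II keratins and the type I keratins, Krt7, Krt8, Krt18 and Krt19 among them, none was analysed here.

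Genes that mark kidney cell types, and 1 more junction gene, were read beside the 2 genes. Trpm6, Foxi1 and Evpl had been selected by the study on the kidney F0 difference in these samples, so their values are a description. Trpm6, a magnesium channel of the distal convoluted tubule, averaged 983 ± 210, 869 ± 76.2, 704 ± 136 and 716 ± 161 counts in cohorts A to D. Foxi1, a transcription factor of intercalated cells, averaged 1382 ± 136, 1275 ± 178, 1168 ± 219 and 1017 ± 143. Their F0 differences were −0.37 (SE 0.103) and −0.29 (SE 0.076), short of the limits used for ancestral effects. Evpl, a plakin of stratified epithelia, had the opposite sign at 0.46 (SE 0.119), also short of them. Against cohort A, the differences of Trpm6, Foxi1 and Evpl were −0.48, −0.24 and 0.47 in cohort C and −0.46, −0.44 and 0.70 in cohort D. In cohort D, Foxi1 and Evpl were past these limits, as were Dcun1d2 and Krt80 and, in all, 0.615% of the genes tested. These values reuse the kidneys that had selected the genes, so they are a description. The 113 genes past the limits fell to 1 without the second necropsy date and to 0 without the fourth. With libraries scaled by their totals alone, Dcun1d2 was short of the limits. Nphs1, Lrp2 and the endothelial receptor Kdr stood at −0.08, −0.05 and −0.05. Each of these cell type lists had 1 gene with an identifier, the lists for the thick ascending limb, principal cells, urothelium, smooth muscle and immune cells had none, and the part of cell types in the difference of Dcun1d2 and Krt80 was not tested.

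In liver, Dcun1d2 was also lower with a treated grandsire, by less than in kidney and short of the limit. In vehicle livers its normalized counts ran from 509.9 over a median of 589.4 to 665.5 with an untreated grandsire (594 ± 42.4, n = 14), and from 446.6 over 520.4 to 701.4 with a treated one (537 ± 64.1, n = 13). The ranges overlapped over most of their length. The highest of these values, 701.4 in replicate 3 of cohort C, came from a library with a TMM factor of 0.752 and was only 4.28 on the TPM scale, the lowest of the 27. Over all 83 livers the F0 effect was −0.12 (SE 0.047, 95% interval −0.208 to −0.0239, edgeR adjusted p = 0.139), when 7.34% of the genes tested were called. The same comparison scaled by library totals alone also gave −0.12, with an adjusted p of 0.0840, past the limit. With sires as units (9 against 8) the difference was −0.13 (exact two-sided permutation p = 0.0286, 0.0573 adjusted over the 2 genes). These sires were those behind the kidney choice, so the liver difference is no independent check of it.

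The liver difference was uneven over cohorts and dates. Within the same dose and sire treatment, 5 of 6 differences by grandsire were negative, between −0.24 and −0.041, and that between cohorts D and B at the high dose was 0.07. On the 4 dates the values were −0.19, 0.02, −0.38 and −0.02. Without the second date the effect was −0.16 and passed (adjusted p = 0.0752). Leaving out single libraries moved a least-squares estimate between −0.12 and −0.094. Whether the liver effect differed from that in kidney was not tested.

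For Krt80 in liver the grandsire effect could not be resolved at this depth, because the mean was 2.2 normalized counts, under the minimum of 50. It was −0.17 (−0.804 to 0.470, adjusted p = 0.842), with an exact p of 0.557 over sires. The sire effect was −0.12 for Dcun1d2 (−0.210 to −0.0253, adjusted p = 0.380) and 0.18 for Krt80 (−0.461 to 0.830, adjusted p = 0.886), when 0.0474% of genes were called. The grandsire effect on the response to CCl4 was 0.01 (SE 0.115) at the low and 0.06 (SE 0.115) at the high dose for Dcun1d2, and 0.39 (SE 0.883) and 0.79 (SE 0.874) for Krt80, all with adjusted p-values of 0.99995. In these comparisons 0 genes (0%) passed in edgeR, 821 and 1026 had an unadjusted p under 0.05, and DESeq2 called 2 and 5.

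**Figure D2:**
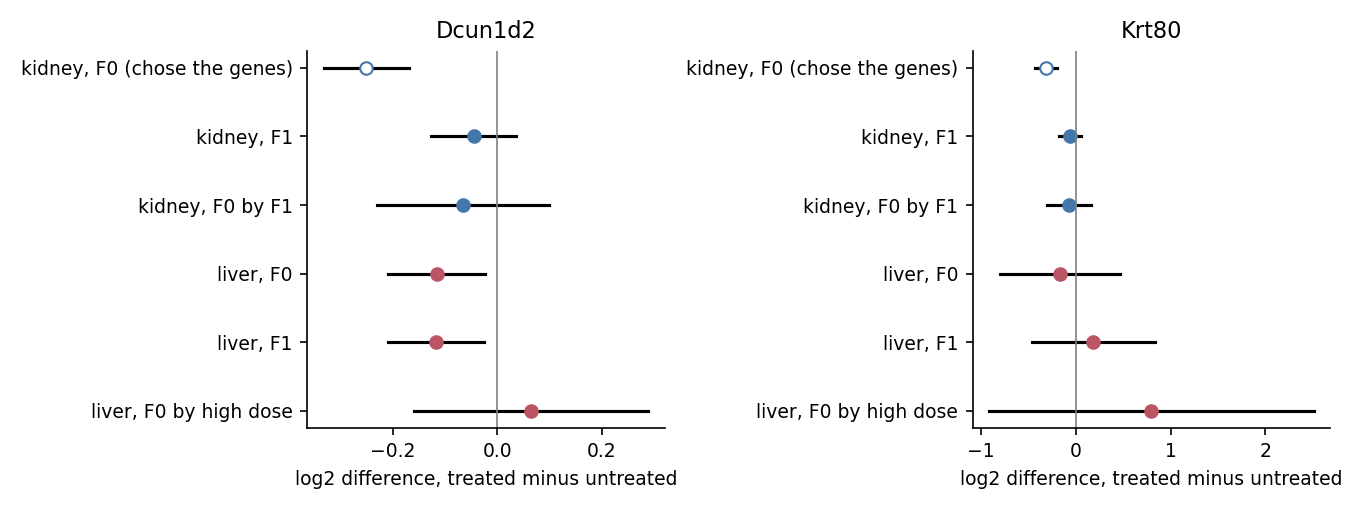
Log2 differences (x axes) of Dcun1d2 and Krt80 by ancestor treatment in kidney and liver, with 95% intervals as lines, on axes of different range. The kidney F0 differences (open points, −0.25 and −0.31) chose the genes and are a description. The kidney F1 estimates are −0.05 and −0.06, and the liver F0 interval is wider for Krt80 (−0.804 to 0.470) than for Dcun1d2 (−0.208 to −0.0239).

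The list genes with an identifier were in the gene table largely because the study had selected them for the liver F0 effect, so their liver differences by grandsire treatment are a description. Dcun1d3 stood at −0.19, Cul9 at 0.22 and Jup at 0.26. In the RefSeq annotation of the GRCr8 assembly, Tmco3 lies next to Dcun1d2. It had likewise been selected on liver, where its F0 difference was −0.54 (SE 0.156), and it stood at 0.18 in kidney (SE 0.205, adjusted p = 0.808), where it did not pass.

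With CCl4 given to the animals themselves, Dcun1d2 fell relative to the typical liver gene but not as a share of all counts. The lowest, median and highest normalized counts in cohort A were 509.9, 591.3 and 658.3 with vehicle, 436.0, 501.4 and 713.8 in the low dose males and 348.4, 460.5 and 617.2 in those of the high dose. In cohort B they were 549.5, 587.4 and 665.5 with vehicle, 445.0, 532.5 and 615.3 in the low dose males and 285.9, 381.1 and 457.6 in those of the high dose. The ranges of vehicle and high dose overlapped in cohort A and were separate in cohort B. In cohort C the 3 values were 478.6, 573.6 and 701.4 with vehicle, 416.1, 506.9 and 607.5 at the low and 359.1, 392.3 and 485.6 at the high dose. In cohort D they were 446.6, 508.3 and 556.4, then 411.0, 466.01 and 518.3, then 237.8, 413.0 and 471.1. High dose males below every vehicle male of their cohort numbered 5, 7, 6 and 5 of 7 in cohorts A to D.

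Over the cohorts, Dcun1d2 had 567 ± 60.1 (n = 27), 505 ± 69.7 (n = 28) and 415 ± 84.9 (n = 28) normalized counts at vehicle, low and high dose. The low dose effect was −0.17 (SE 0.057, edgeR adjusted p = 0.0276) and the high dose effect −0.45 (SE 0.057, adjusted p = 7.98e-11), a change of −27.0%. High against low dose gave −0.29 (SE 0.057, adjusted p = 9.37e-06). None exceeded the 2-fold limit set for dose effects, a log2 change of 1, which with an adjusted p under 0.1 called 6.26%, 25.3% and 15.9% of genes in these comparisons. Cohorts A to D gave −0.29, −0.68, −0.48 and −0.36 at the high dose.

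The direction of this change depended on the scale. When libraries were scaled by their totals alone, an alternative chosen after seeing the data, Dcun1d2 changed by 0.00 at the low dose, by 0.14 at the high dose (SE 0.050, adjusted p = 0.00751) and by 0.14 between high and low dose (adjusted p = 0.00785). That scaling moved the median change of all genes tested from 0.0054 to 0.62 at the high dose and from 0.0045 to 0.17 at the low dose. Set against that median, Dcun1d2 changed by −0.46 under TMM and by −0.48 under totals alone at the high dose, and by −0.17 under both at the low dose. Among genes called at the high dose, 73.4% were higher under TMM and 93.3% under totals alone.

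On the TPM scale Dcun1d2 averaged 5.81 ± 0.668 TPM with vehicle and 7.52 ± 1.21 at the high dose in cohort A, a ratio of 1.29. In cohorts B, C and D the ratios were 1.001, 1.084 and 1.099. Ranked among all genes of its library, its median percentile was 57.4 with vehicle, 55.2 at the low and 53.0 at the high dose.

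**Figure D3:**
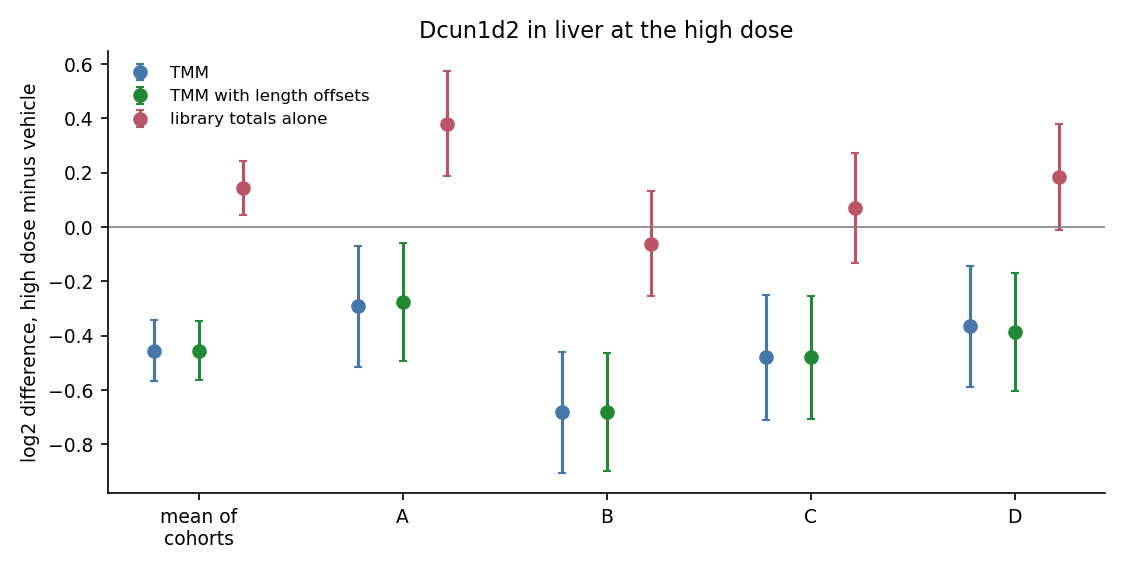
Log2 difference of Dcun1d2 in liver between high dose and vehicle (y axis), as the mean of cohorts and in cohorts A to D, under 3 ways of setting library size, with 95% intervals. The TMM values lie between −0.68 and −0.29, and those from library totals alone between −0.06 and 0.38.

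Krt80 was close to absent from vehicle liver and rose at the high dose. It had a count in 12 of 27 vehicle, 19 of 28 low dose and 24 of 28 high dose livers. The vehicle livers held 18 counts in all, the low dose livers 38, and the high dose livers of cohorts A to D 41, 39, 32 and 56. Scaled to library totals that is 0.0171 CPM with vehicle (exact 95% interval 0.0101 to 0.0270), 0.0337 at the low dose (0.0238 to 0.0462) and 0.152 at the high dose (0.130 to 0.177). Relative to vehicle the ratio was 1.97 (1.097 to 3.67) at the low and 8.89 (5.46 to 15.4) at the high dose, intervals that cover counting error only. In a library listed at 0, up to 3 counts are allowed.

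High dose livers held, as lowest, median and highest counts, 0, 4 and 22 in cohort A, 2, 5 and 11 in cohort B, 2, 4 and 11 in cohort C and 0, 3 and 36 in cohort D. Vehicle livers held at most 2, 3, 1 and 2 counts in these cohorts and low dose livers at most 4, 3, 3 and 3. All 7 high dose males of cohort C, 5 of cohort B and 4 each of cohorts A and D exceeded every vehicle male of their cohort in normalized counts. The edgeR estimate was 2.36 (SE 0.442, adjusted p = 2.84e-06) for the high dose and 1.54 (SE 0.393, adjusted p = 0.00051) for high against low dose, both past the limits, where 18.5% of genes were called higher at the high dose and 15.9% in either direction against the low dose. By cohort the high dose gave 1.91, 2.01, 2.89 and 2.62, all past the limits, as were 15.4%, 18.2%, 14.4% and 16.6% of genes in that direction. The low dose gave 0.81 (SE 0.481, adjusted p = 0.236), which did not pass.

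These calls leaned on few reads. Without the 2 libraries with most Krt80 counts, chosen after seeing the data, the high dose gave 1.94 (adjusted p = 4.89e-05) over the cohorts, but 1.15 in cohort A (adjusted p = 0.271) and 1.69 in cohort D (adjusted p = 0.116), no longer past the limit. The library with 36 counts, replicate 5 of cohort D, also had the highest TMM factor (1.92) and the lowest Dcun1d2 value (237.8) of the high dose group. With the litter as a block the high dose gave 1.97 (adjusted p = 0.0019) over the cohorts, but cohorts A and D on their own did not pass. Each of the cohorts also lost its call when some necropsy date was left out. Scaled by totals alone it gave 3.02, and set against the median of all genes 2.35 under TMM and 2.40 under totals alone.

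**Figure D4:**
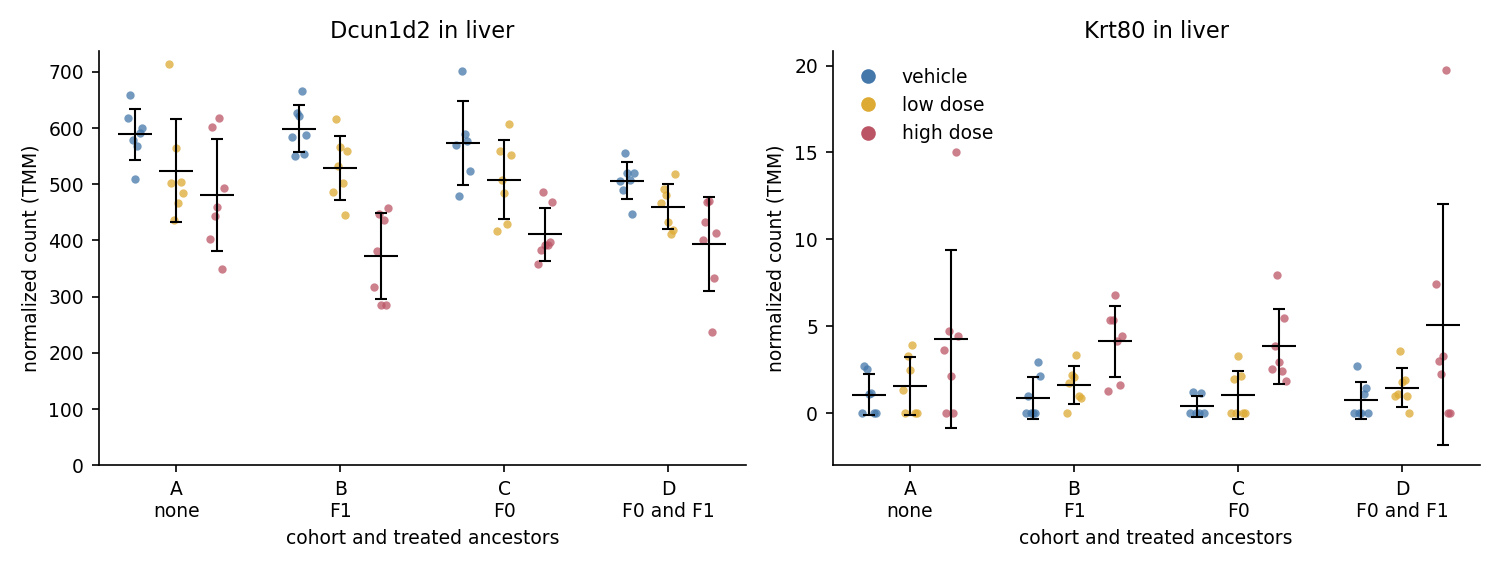
Normalized counts of Dcun1d2 and Krt80 (y axes) in the 83 liver libraries by cohort and dose (x axes), with 1 point per animal and bars for the mean and SD. Dcun1d2 means fall from 589 to 481.2 in cohort A and from 599 to 373 in cohort B between vehicle and high dose, and the Krt80 points stay under 20, the highest being 15.03 in cohort A and 19.8 in cohort D.

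Of the 9 other list genes tested at the high dose, 3 were called on the TMM scale, beside 25.3% of all genes, and 1 under library totals alone, beside 35.1%. Evpl was called higher at 2.86 (adjusted p = 9.80e-08), from few counts as well. Kdr, the endothelial receptor, was called lower at −1.05 (adjusted p = 4.60e-15), and so was Trpm6 at −1.21 (adjusted p = 9.73e-07). Under library totals alone Evpl stood at 3.55 and was still called, whereas Kdr and Trpm6 stood at −0.48 and −0.68, inside the 2-fold limit. Dcun1d3 stood at 0.18 at the low and 0.32 at the high dose under TMM (adjusted p = 4.31e-05 at the high dose, inside the 2-fold limit) and at 0.35 and 0.95 under totals alone. The sign depended on the scale for Jup, at −0.30 (adjusted p = 0.000195) and 0.29 under totals alone, as it did for Ube2m (−0.06 and 0.55), Cul9 (−0.02 and 0.57) and Nphs1 (−0.37 and 0.25). Lrp2 stood at 0.22 and 0.81. The part of the cell types these genes mark in the changes of Dcun1d2 and Krt80 was not tested.

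The 2 genes, chosen among genes expressed in kidney, stood in opposite order in the organs, and the differences were not tested. In the 27 vehicle males with both organs, Krt80 averaged 9.91 ± 1.86 TPM in kidney and 0.0068 ± 0.0088 in liver. Kidney libraries held 20426 Krt80 counts in all (26.6 CPM) and liver libraries 18, a ratio of 1558 (exact 95% interval 986 to 2629, for counting error only). The edgeR difference, liver against kidney of the same animal, was −9.44 (SE 0.169), where 27.7% of genes were called lower. Dcun1d2 averaged 4.93 ± 0.787 TPM in kidney and 5.72 ± 0.632 in liver, a ratio of 1.16. On the TMM scale it was 1.07 higher in liver (SE 0.034, where 46.6% of genes were called in either direction), but only 0.11 higher when scaled by totals alone (SE 0.039), inside the 2-fold limit. The median of all genes moved from −0.071 to −1.02 between these scales, and against it Dcun1d2 was 1.14 higher under TMM and 1.13 under totals alone.

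Within kidney libraries the ratio of Krt80 to Dcun1d2 on the TPM scale lay between 1.66 and 2.48 with a median of 1.97. In order of level, the highest TPM of Dcun1d2 was in high dose livers of cohort A (7.52 ± 1.21) and the lowest in kidneys of cohort C (4.38 ± 0.627). Ranges of all neighbours in the order of the 16 groups overlapped. For Krt80 the order was kidney of cohort B (11.2 ± 2.10), A (10.8 ± 1.28), D (8.83 ± 1.098) and C (8.71 ± 1.60), followed without overlap by liver at 0.0940 ± 0.157 or less. The 4 kidney groups overlapped with their neighbours, as did the liver groups.

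**Figure D5:**
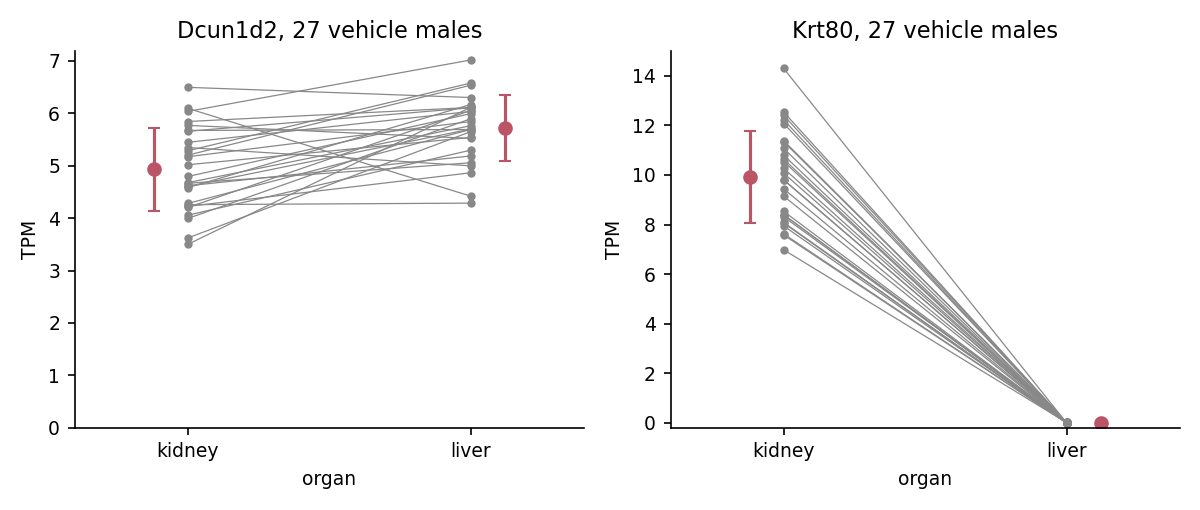
TPM of Dcun1d2 and Krt80 (y axes) in kidney and liver of the 27 vehicle males, with grey lines joining the organs of 1 animal and red points and bars for the mean and SD. Dcun1d2 averages 4.93 in kidney and 5.72 in liver with overlapping ranges, and Krt80 9.91 in kidney and 0.0068 in liver.

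After removal of group means, the males' levels were compared in 4 relations. In each, r was also given without the 2 males farthest from the median of the liver value or, between genes, of Dcun1d2. Dcun1d2 in liver and kidney of the same male had Pearson's r = 0.29 (permutation p = 0.150, adjusted 0.299) and Spearman's rho = 0.38 (permutation p = 0.0496, adjusted 0.164). Its r was 0.34 without 2 males and −0.19, 0.35 and 0.092 within the 3 dates with enough males. For Krt80 the values were r = −0.15 (permutation p = 0.445) and rho = −0.13 (permutation p = 0.516), with r = −0.13 without 2 males and −0.22, 0.14 and −0.27 by date. The 2 genes in kidney had r = 0.20 (permutation p = 0.312) and rho = 0.11 (permutation p = 0.571), with r = 0.011 without 2 males and 0.59, 0.60 and −0.15 within the 3 dates with enough males. In the 83 livers they had r = −0.33 (permutation p = 0.00196, adjusted 0.00784) but rho = −0.19 (permutation p = 0.0818, adjusted 0.164), r = −0.24 without 2 males and 0.038, −0.26, −0.90 and −0.30 by date. The liver relation thus did not hold on each date and was weaker by rank. Its permutation also pooled groups of unequal spread. The SD of log2 CPM ran from 0.097 to 0.35 over the liver groups for Dcun1d2 and from 0.35 to 1.22 for Krt80. Replicate 5 of the cohort D high dose livers, with the lowest Dcun1d2 (237.8) and the highest Krt80 (36 counts), belonged to the third date, where r was −0.90.

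The genes whose residual levels were most like those of each gene are given as a description, since they share library and depth. In the 27 kidneys, among 1408 genes with a symbol, all from the table of genes the study had selected, they were Tnks2, Zmym6, Rprd1a, Heatr1 and Kbtbd8 for Dcun1d2 (r from 0.63 to 0.58) and Gtf2e1, Nhlrc1, Slc39a14, Fem1a and Dab2ip for Krt80 (0.64 to 0.53). In the 83 livers they were Fastkd3, Map2k4, Nudt4, Fbxo33 and Ap5m1 for Dcun1d2 (0.63 to 0.59) and Cttnbp2nl, Map3k6, Thbd, Tecpr1 and Rapgef5 for Krt80 (0.58 to 0.46). No gene was named in both organs for either gene.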

How the data were processed

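RNA of 83 livers and 27 kidneys was sequenced from stranded polyA libraries as read pairs. The authors quantified transcripts with Salmon 0.14.0 on the Ensembl rat transcriptome, then used tximport in R 3.5.0 to obtain a value per gene. The deposited values are estimated counts as whole numbers without normalization, and the other deposited values are average transcript lengths per gene and sample, in bases. Symbols came only from a gene table of the study. Groups followed the deposited labels, and litters, F0 sires and necropsy dates the paper's supplement.

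A gene was tested if some group's counts summed to more than 10 (18374 genes in kidney, 19292 in both organs together). Tests were edgeR 4.0.16 quasi-likelihood fits on TMM-normalized counts with Benjamini-Hochberg adjustment, in R 4.3.3. F0 and F1 effects were terms of one model beside F2 dose, dose effects were contrasts of group means, and organs were compared with the animal as a block. Every call needed an adjusted p below 0.1. For F0 and F1 effects and interactions the average normalized count also had to exceed 50, and for dose and organ effects the log2 change had to exceed 1 in size. The 95% intervals of log2 values are 1.96 SE. Values printed per library are TMM-normalized counts or TPM computed here from counts and lengths. Sires were compared by exact permutation over all 24310 splits and correlations with 100000 resamples (SciPy 1.17.1). Log2 CPM used a prior count of 2. The scripts were tested on simulated data.

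The alternatives were DESeq2 1.42.0, DESeq2 size factors, length offsets, other filters and limits, date, litter or sire as a block, vehicle males alone and leaving out each date. The genes named are the 2 members, members of gene lists and, for each gene and organ, the 5 with the highest r of residuals. The members and lists were chosen with earlier results of these data known. In every list under 80% of genes had an identifier, so the list checks were void. Within an organ each library is a separate male, and p-values of the fits measure the spread between males. These males are not independent, as litters and grandsires were shared, and in liver each F0 sire had at least 2 libraries. The exact p-values over sires measure the spread between sires. No promoter or protein sequence is printed.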

Additional observations from a re-analysis of the deposited data

Results flagged for a closer look

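In 3 of 32 sets, formed by gene and group, 1 library stood apart by a gap that exceeded the 95% critical value for a sample of its size, of which chance gives about 1 in 20. Dcun1d2 in kidney of cohort A had its lowest library at 296.8 normalized counts, with the other 6 between 335.4 and 352.5. This library alone made the ranges of cohorts A and C overlap. Krt80 in high dose liver had its highest library at 15.03 normalized counts (22 counts) in cohort A and at 19.8 (36 counts) in cohort D. Without these 2 livers the high dose effect on Krt80 was 1.94 over the cohorts.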

How the results depend on the processing

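Of 542 alternative values for the 2 genes, 513 kept their direction and, where a test was made, their side of the limits, 15 reversed, 11 lost and 3 gained a call. The 513 include 40 values per gene of the kidney F0 difference, which chose the genes. For these only the direction was compared, so they say little about stability. The kidney F0 difference stayed between −0.27 and −0.23 for Dcun1d2 and between −0.40 and −0.25 for Krt80, but the rule that chose the genes was met in only 8 of 13 settings by Dcun1d2 and 4 of 13 by Krt80. The number of genes called there ranged from 0 to 73 (2 under edgeR, 73 under DESeq2, 7 with the date as a block).

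Library totals alone (added after seeing the data) reversed Dcun1d2 at the low dose (0.000324, and 0.0276, 0.0151 and 0.0257 in cohorts A, C and D), at the high dose (0.14, and 0.38, 0.0706 and 0.18 in cohorts A, C and D), between high and low dose (0.14) and in the F0 by high dose interaction (−0.0326). They brought its liver F0 effect past the limit (−0.12) and took its organ difference under it (0.11). The reversals at each dose follow the shift of the median of all genes given above. Leaving out 1 date at a time gave −0.16 to −0.0705 for the liver F0 effect of Dcun1d2, −0.38 to 0.16 for that of Krt80, −0.0735 to 0.40 for the F1 effect of Krt80 and 0.29 to 1.51 for its low dose effect, called without the fourth date. For the F0 by low dose interaction it gave −0.0819 to 0.0812 for Dcun1d2 and −0.0272 to 0.680 for Krt80, both negative without the fourth date, and for the low dose effect on Krt80 in cohort D −0.0792 to 1.44, negative without the second. Single cohorts lost the Krt80 call at the high dose when dates were left out (0.46 in A, 1.94 and 1.34 in B, 2.44 in C, 1.81 in D) and in cohort A at an adjusted p under 0.05. The cause was not tested.

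As a replicate block, the litter gave −0.48 for Dcun1d2 and 1.97 for Krt80 at the high dose, and 1.47 and 1.76 for Krt80 in cohorts A and D, which then did not pass. The date as a block gave −0.25 and −0.32 for the kidney F0 difference, and organs without the animal block 1.07 and −9.43. With the F0 sire as a correlated block Krt80 missed the rule in kidney (−0.31). No other call of the 2 genes changed under the blocks fitted. The sire block was fitted for F0 effects alone and the litter block for dose effects alone. The F1 effects and the interactions with F0 therefore had only the date as a block, and their spread between litters was not tested.

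Gene counts that moved by over 1.5 times were the liver F0 effect (1394 called, 178 to 1652 under alternatives), the liver F1 effect (9, 1 to 112), the kidney F1 effect (0, at most 1), dates in kidney (0, at most 25) the F0 by dose interactions (0, at most 2 and 5), kidney cohort D against A (113, 0 to 495), the low dose in cohorts A to D (704, 694, 848 and 807, with as few as 313, 377, 375 and 477, and up to 1067 in A) and the high dose in cohort A (4125, 3516 to 6758). For kidney cohorts B and C against A edgeR called 0 (878 and 1081 at an unadjusted p under 0.05) and DESeq2 2 each. Under totals alone, genes called higher at the high dose rose from 3521 to 6221 (cohorts A to D from 2926, 3466, 2734 and 3160 to 6321, 6156, 4750 and 5981), and genes lower in liver than kidney from 5340 to 9762. Of F1 calls in liver, 44.4% were higher under TMM and 92.3% under totals alone, of high against low dose calls 68.7% and 89.8%, and of organ calls 40.7% and 16.9%. Depth limited Krt80 in liver, where a filter on a mean count over 10 left no value and DESeq2 gave no adjusted p for the F0 and F1 effects.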

Other observations

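The deposited average transcript length, which summarises the mix of isoforms of a gene, was compared for both genes. Dcun1d2 averaged 2489 ± 18.1 bases in high dose livers, a log2 difference of 0.0079 from vehicle (permutation p = 0.00268). Relative to the mean of 11597 expressed genes of the same library the difference was 0.00098 (permutation p = 0.876). Kidney values were 2538 ± 36.6 bases, and liver differed from kidney by −0.036 on the deposited and 0.043 on the relative log2 scale (permutation p = 1e-05 for each, the smallest that 100000 resamples can give). For Krt80, 12 males had liver counts, with a log2 difference between liver and kidney of −0.074 (permutation p = 0.00194), and 0.0016 on the relative scale (permutation p = 0.883). Those 12 livers held 18 Krt80 counts in all and at most 3 each, too few for the length to describe a mix of isoforms.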
